A study of Mus musculus with 20 samples.

Results

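The 10 genes described here are a compact set of the Notch pathway: the receptors Notch1 and Notch2, the ligands Dll1, Dll4, Jag1 and Jag2, and the transcription factors Hes1, Hes5, Hes6 and Hey1. They were found by the gene name that the array files give each probe, which matched 13 probes of 41174 on the array. Of the 10 genes, 9 passed the filter on dim probes and entered the tests beside 17072 genes in all (27573 without that filter). Notch2 did not pass: its 1 probe was well above background in 25 of 40 channels, and its wild type level ran from 7.12 to 7.28 on the log2 intensity scale. It was not tested, and no direction is given for it.

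Notch receptors are membrane proteins that are cut when a neighbouring cell presents a ligand. The freed inner part enters the nucleus, joins the DNA-binding protein Rbpj and switches on target genes, among them repressors of the Hes and Hey families. In the intestinal epithelium this signal keeps progenitors on the absorptive path: Hes1 represses Atoh1, the factor that starts the secretory path, and the ligands Dll1 and Dll4 are carried by secretory cells. Spdef, a transcription factor of the ETS family, acts in maturing goblet and Paneth cells on that secretory path. Notch genes also work in blood vessels, where Hey1, Dll4 and Jag1 are known, and in neural cells, where Hes5 is known.

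Rbpj is known to bind letters that include TGGGAA. RefSeq promoters (GRCm38.p6) were found for 8 of the 10 genes, with 10 start sites between them. Hes1 and Hey1 had no entry and were not searched. Over the 250 bases before the start, on both strands, TGGGAA was in 21.6% of 32851 promoters, and a second copy was in 2.77%. Of the 8 genes with an entry, Hes5 held it, with 2 copies, 226 and 82 bases before the start. Both stretches that follow are the 150 bases before a start site, read 5′ to 3′ on the gene's own strand, and TGGGAA is in capitals. Hes5 (plus strand, chr4:154960773-154960922) is shown because its level split the fetal pools, and Hes6 (minus strand, chr1:91413223-91413372, 1 of its 2 starts) because it is the related gene without these letters. A match is a string of letters and not a measured binding site.
Hes5: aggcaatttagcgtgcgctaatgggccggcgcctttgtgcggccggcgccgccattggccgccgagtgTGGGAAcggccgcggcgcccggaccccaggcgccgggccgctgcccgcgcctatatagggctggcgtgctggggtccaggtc
Hes6: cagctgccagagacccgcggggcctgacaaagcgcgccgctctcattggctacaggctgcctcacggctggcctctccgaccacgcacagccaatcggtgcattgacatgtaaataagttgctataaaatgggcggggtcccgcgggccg
The E-box CACGTG, a sequence bound by Hes and Hey type proteins among others (6.02% of promoters), and the ETS letters CCGGAT (4.94%) were in none of the 10 promoters.

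The samples were RNA pools of dissected whole small intestine or colon from mice lacking Spdef (Spdef-/-, written KO) and from wild type mice. Adult mice were at postnatal day 30 and fetal mice at E18.5 (a day of gestation), with 2 to 3 littermates per pool, and the labels give no strain, sex or cell type restriction of the knockout. Each KO pool was set against a wild type pool on two-colour arrays in both dye orders, 20 arrays in all: 2 pairs of pools of adult small intestine, 3 of adult colon, 3 of fetal small intestine and 2 of fetal colon. Nothing states that pools of a group came from separate litters, so p-values measure the spread between these pools, and precision is limited by how few arrays there are. The Spdef probe read lower in KO on 20 of 20 arrays, at log2 ratios from -4.09 to -1.20. By limma it passed the threshold for adult colon, where adjusted p was 0.00204, and for the mean over groups, where it was 0.000851, and missed it in adult small intestine (0.0951), fetal small intestine (0.0673) and fetal colon (0.154). The share of probes well above background ranged over the channels from 39.7% to 71.6%.

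Tissue markers went against the labels in 1 pool pair of each fetal tissue, both on the same slide. In the wild type pool labelled fetal small intestine 3, lactase (Lct), a small intestinal enzyme, was at 8.76, and Hoxb13, a gene of the hindgut, was at 11.6. In the wild type pool labelled fetal colon 1, Lct was at 16.4 and Hoxb13 at 7.0. The other 2 fetal small intestine pools had Lct at 16.0 and 16.1 and Hoxb13 at 7.04 and 7.06, and fetal colon pool 2 had Lct at 9.09 and Hoxb13 at 11.2. The whole lists went the same way: 8 small intestine markers averaged 8.83 in the pool labelled fetal small intestine 3 and 11.8 in the pool labelled fetal colon 1, and 7 colon markers averaged 10.05 and 8.64. The KO pools of both pairs showed it too, with small intestine averages of 8.75 and 11.9. The labels were kept, these pools are called by their label, and results that rest on them are given with and without that slide. Fetal small intestine pairs 1 and 2 differed by less than the noise between arrays and counted as 1 replicate, so the tests rest on 9 replicates.

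The levels on 1 array stood apart, that of adult colon pair 1 with KO in Cy5. Its wild type levels correlated across genes, which are not independent replicates, at 0.734 with those of its dye swap, which held the same pair of pools, against 0.995 to 0.998 in the other 9 pairs. Of the genes tested, 46.3% differed by more than 1 on the log2 scale between these 2 arrays, against at most 0.316% in any other pair. The KO over wild type ratios of the pair, which are taken within an array, correlated at 0.509 between its dye orders, against 0.318 to 0.677 elsewhere. The wild type level of adult colon pool 1 is the mean of both arrays in what follows, and results are also given with that pool taken from its array with KO in Cy3 alone, an alternative chosen after the data were seen.

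In KO against wild type, none of the 9 tested Notch genes passed the threshold in any of the 4 groups or in their mean. Of 90 values, 1 per gene and pair of pools, 81 lay within 0.25 of 0 on the log2 scale, and all lay between -0.41 and 0.54. In adult colon, where 9.58% of all genes passed (adjusted p under 0.05 by limma with Benjamini-Hochberg adjustment), the count was 0 of 9, and 1 gene (Hey1) had an unadjusted p under 0.05, against 27.6% of all genes. The share of all genes that passed was 0.287% in fetal colon, 0.439% in fetal small intestine and 0.398% in adult small intestine. The members' count was 0 in each, with unadjusted p under 0.05 for 0, 0 and 2 genes (Dll4 and Hey1). The shares of all genes with an unadjusted p under 0.05 were 6.52%, 7.56% and 12.1% in these groups. With 9 genes tested, a count of 0 is near the background in each of the 4 groups, adult colon included. For the mean of the 4 groups the background was 1.79%, and 1 member (Hey1) had an unadjusted p under 0.05, against 16.7% of all genes. The 95% intervals, not adjusted for the number of tests, bound the ratio as read on the arrays. Of 36, 34 lay within 0.5 of 0 on the log2 scale (1.41-fold). The widest bounds were -0.63 (Dll1, adult small intestine) and 0.54 (Dll1, fetal small intestine). Of the 36, 33 held 0, and those of Dll4 and Hey1 in adult small intestine and Hey1 in adult colon did not. How far ratios of dim probes fall short of the change in RNA was not tested. In bulk tissue, fewer cells of a type and less RNA per cell cannot be told apart.

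**Figure D1:**
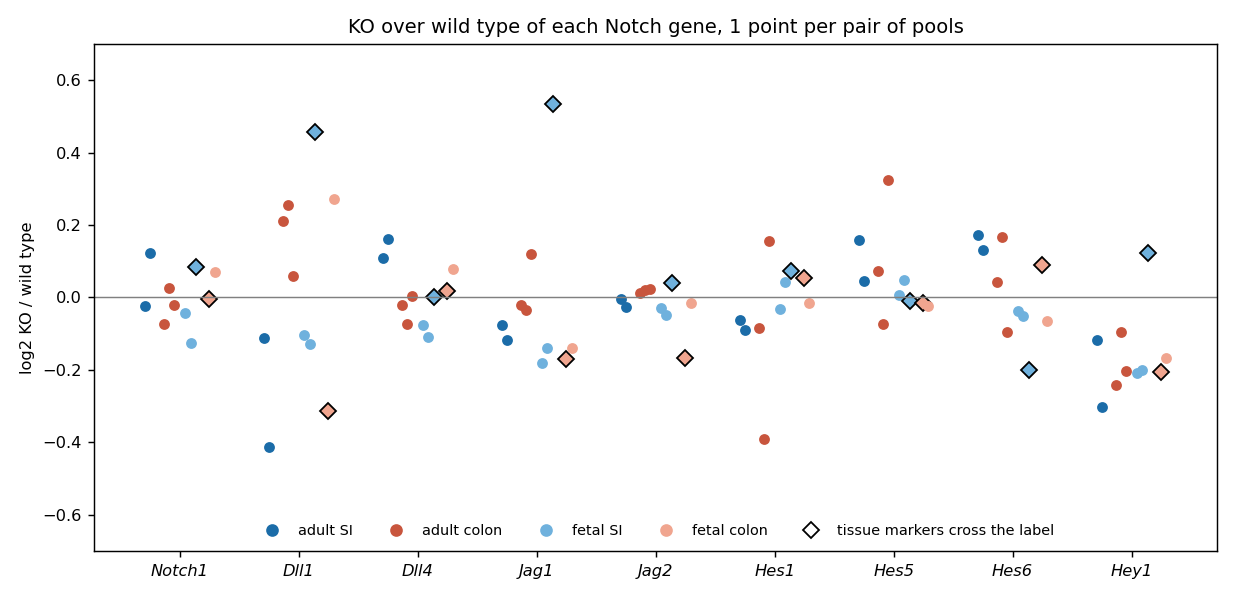
Log2 ratio of KO over wild type (y axis) of the 9 tested Notch genes (x axis), 1 point per pair of pools with both dye orders averaged, coloured by group; black-edged diamonds are the pairs whose tissue markers cross their label. Most points lie within 0.25 of 0, Hey1 lies below 0 in 9 of 10 pairs, and the pair labelled fetal small intestine 3 is the highest for Dll1 and Jag1.

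Among the receptors and ligands the ratios were small and mixed in sign. Notch1, the main receptor of crypt progenitors, lay between -0.13 and 0.12 over the 10 pairs, below 0 in 6 and above in 4. Dll4 lay between -0.11 and 0.16. It was 0.11 and 0.16 in the adult small intestine pairs, a mean of 0.13 ± 0.050 (SE) with adjusted p = 0.334 by limma. Jag2, a ligand of the Serrate type, lay between -0.17 and 0.04. None of these 3 genes passed the threshold in any group.

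Dll1, the Delta ligand whose probe lies on chromosome 17 (mm8, 15072622 to 15072681), 12.4 Mb from the Spdef probe, had the ratios that varied most by group. In adult small intestine the pairs were at -0.11 and -0.41, lower on 4 of 4 arrays. In adult colon they were at 0.21, 0.26 and 0.06, higher on 6 of 6 arrays. The difference in KO effect, small intestine minus colon in the adult, was -0.44 ± 0.21 (SE) with adjusted p = 0.566 by limma, in a comparison where 0.158% of genes passed. In the fetus the pairs labelled small intestine 1 and 2 were at -0.10 and -0.13 and the pair labelled 3 at 0.46. The fetal colon pairs were at -0.31 and 0.27. Without the slide whose markers cross the labels, the fetal values were -0.12 and 0.27, and the difference over both stages went from -0.12 ± 0.16 (SE, adjusted p = 0.923) to -0.41 ± 0.11 (SE, adjusted p = 0.416).

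Jag1, a ligand active in vessels and epithelium, was measured by 2 probes, of which 1 was well above background in 2 of 40 channels and was left out. The other gave ratios of -0.08 and -0.12 in adult small intestine, -0.02, -0.03 and 0.12 in adult colon and -0.17 and -0.14 in fetal colon. In fetal small intestine it gave -0.18 and -0.14, and 0.54 in the pair labelled 3. That last value stands apart from the other 9. The Jag1 probe also read higher with KO in Cy5 than in Cy3 in 10 of 10 pairs, an offset that the mean of both dye orders removes.

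Among the targets, Hes1, the repressor that holds back the secretory path, had ratios of -0.06 and -0.09 in adult small intestine, -0.08, -0.39 and 0.16 in adult colon, -0.03, 0.04 and 0.07 in fetal small intestine, and 0.05 and -0.01 in fetal colon. Its pairs fell on both sides of 0 in 3 of the 4 groups. The adult colon mean was -0.11 ± 0.087 (SE) with adjusted p = 0.474 by limma. Hes5 ran from -0.07 to 0.32, with its highest value in adult colon pair 3. Hes6, an unusual family member that opposes Hes1, ran from -0.20 to 0.17, and in adult small intestine it was 0.17 and 0.13. Its adult minus fetal difference in KO effect, 0.15 ± 0.071 (SE), had the smallest adjusted p of 54 tested differences between groups for these genes, 0.294 by limma. None of those 54 passed, and backgrounds over all genes were 1.08% for adult minus fetal and 0.17% for small intestine minus colon. Within 1 tissue or stage they were 0.258% (adult minus fetal small intestine), 0.633% (adult minus fetal colon) and 0.228% (small intestine minus colon in the fetus).

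Hey1, a repressor that Notch induces in vessels and mesenchyme, was the member whose ratio was most often on 1 side. It was lower in KO in 9 of 10 pairs and on 18 of 20 arrays. These counts are not of independent replicates. Fetal small intestine pairs 1 and 2 are 1 replicate in the tests, and the 2 arrays of a pair hold the same pools. The pairs were at -0.12 and -0.30 in adult small intestine and at -0.24, -0.10 and -0.20 in adult colon. In fetal small intestine they were at -0.21, -0.20 and 0.12, and in fetal colon at -0.21 and -0.17. The pair above 0 was the one labelled fetal small intestine 3. The mean over the 4 groups was -0.15 ± 0.040 (SE), a 1.11-fold lower level (95% interval 0.843 to 0.957 of wild type), with adjusted p = 0.105 by limma, which misses the threshold. Over the alternatives the mean stayed below 0, from -0.24 to -0.11, with adjusted p by limma from 0.0293 to 0.850. It passed in 2 of 24. It did with each array as an observation, a dye term and the replicate as a random block (adjusted p = 0.0293). It also did with fetal small intestine pairs 1 and 2 counted separately (adjusted p = 0.0427). Without the slide whose markers cross the labels it was -0.19 with adjusted p = 0.186. Adult colon alone was at -0.18 ± 0.068 (SE), adjusted p = 0.130 by limma. Pair 1 there read -0.47 on the array whose levels stand apart and -0.012 on its dye swap, and from the latter alone adult colon was at -0.10 with adjusted p = 0.380.

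In adult colon 10 of 10 endothelial markers were below 0 (median -0.19, 0 passed; 9 of 10 with pair 1 from its array with KO in Cy3), and their average level was 8.57 to 8.84 in wild type and 8.52 to 8.66 in KO pools. Fibroblast markers were below 0 there too, 6 of 6 with a median of -0.30 and 0 past the threshold. In adult small intestine, where Hey1 was at -0.21, 5 of 10 endothelial markers were above 0 and the median was 0.0069. In fetal colon, where Hey1 was at -0.19, 3 of 10 were above 0 and the median was -0.012. In fetal small intestine, where Hey1 was at -0.21, -0.20 and 0.12 in pairs 1, 2 and 3, the endothelial medians were -0.13, -0.14 and 0.10. The fibroblast medians of these pairs were -0.40, -0.43 and 0.23. In fetal colon, with Hey1 below 0 in both pairs, the fibroblast medians of pairs 1 and 2 were 0.10 and 0.05. In adult small intestine they were -0.20 and 0.03. The part of these markers in the Hey1 ratio was not tested.

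**Figure D2:**
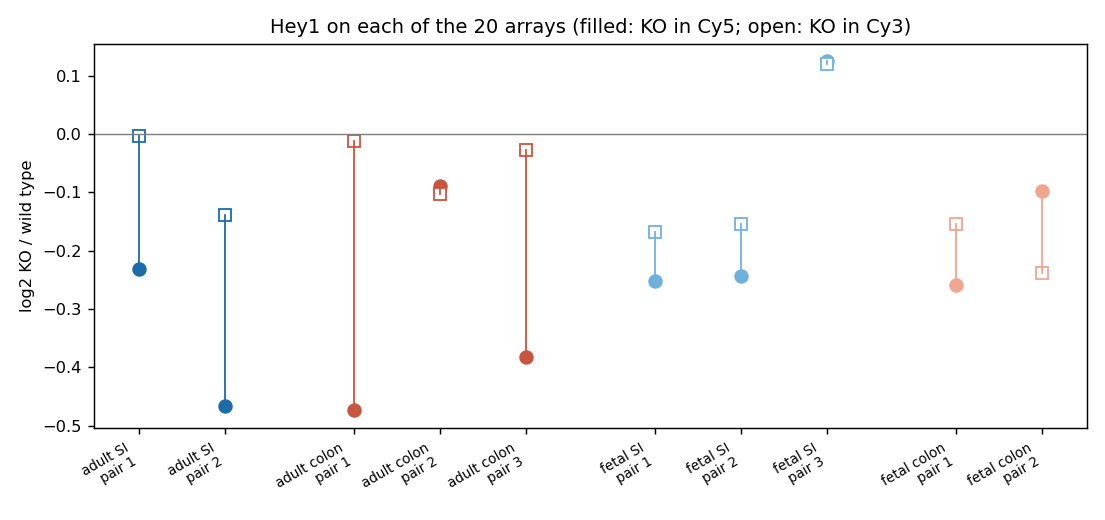
Log2 ratio of KO over wild type of Hey1 (y axis) on each of the 20 arrays (x axis, by pair of pools), with filled circles for KO in Cy5, open squares for KO in Cy3 and a line joining the dye orders of a pair. 18 of the 20 arrays lie below 0, the 2 above 0 are the pair labelled fetal small intestine 3, and the ratio was lower with KO in Cy5 in 7 of 10 pairs.

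Across the 4 wild type comparisons of stage and tissue, 1 Notch gene passed the threshold in 1 of them: Hey1, lower in adult than in fetal colon. Levels are log2 intensities of 1 probe per gene after scaling between arrays, so they compare pools for a gene and not genes with each other. Over the 9 replicates the span was under 1 for Notch1 (0.73), Dll4 (0.92) and Jag1 (0.92), and it was 1.11 for Jag2, 1.21 for Hes1, 1.65 for Dll1, 1.76 for Hey1, 1.86 for Hes5 and 2.29 for Hes6. With adult colon pool 1 from its array with KO in Cy3, the spans of Notch1, Dll4, Jag1 and Hes6 were 0.36, 0.59, 0.79 and 1.17. The shares of all genes that passed then rose from 9.13% to 22.3% for adult minus fetal colon, from 8.86% to 22.7% for adult minus fetal small intestine and from 3.16% to 8.04% for adult colon minus adult small intestine.

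**Figure D3:**
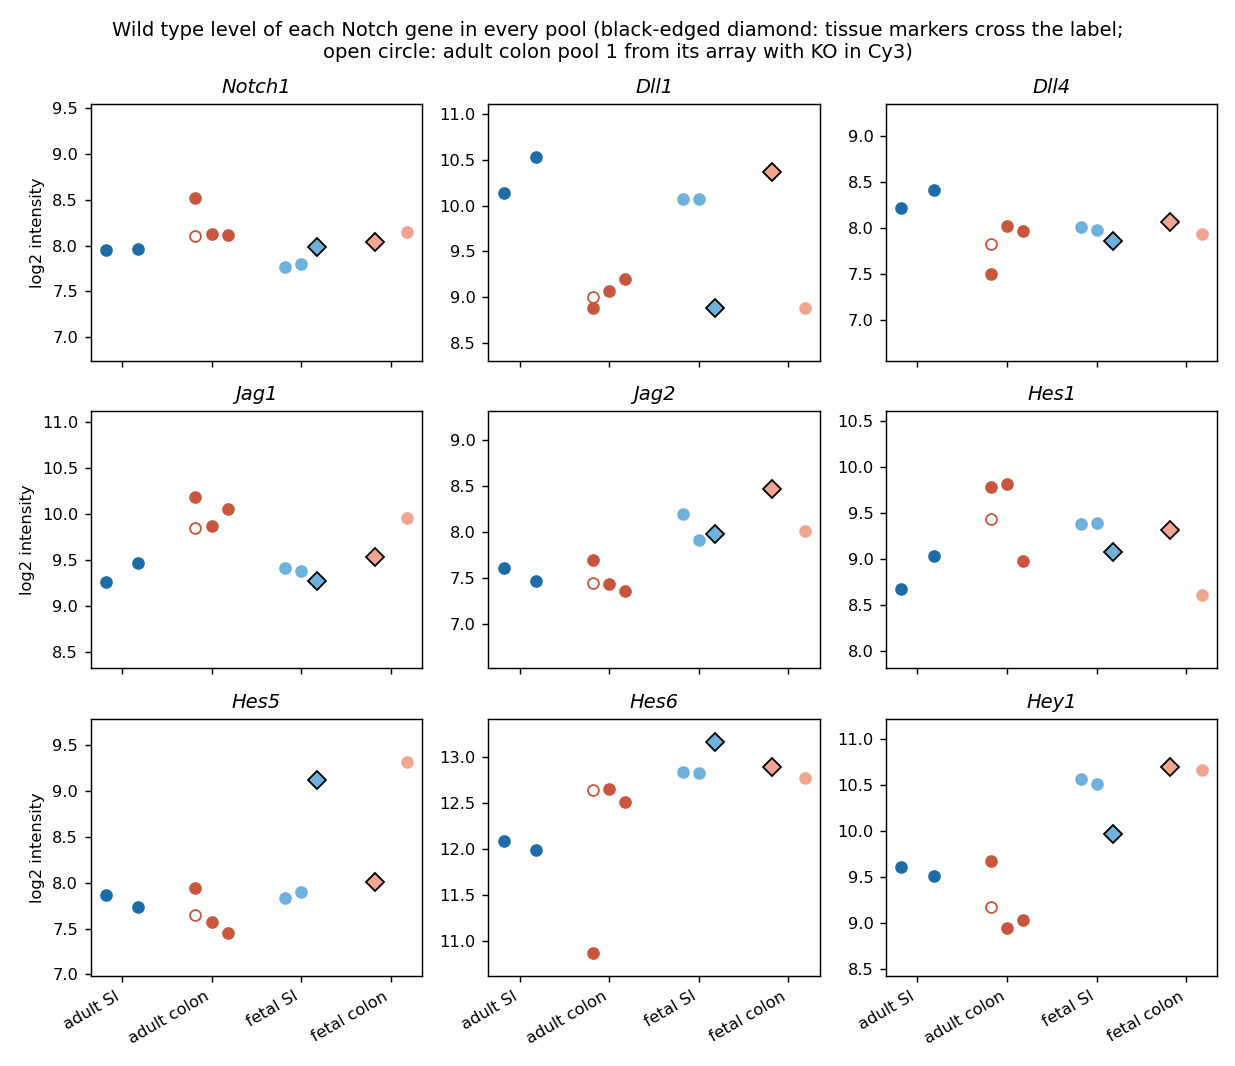
Wild type level in log2 intensity (y axis, the same height of range in every panel) of the 9 tested Notch genes in each pool, by group (x axis; SI is small intestine); black-edged diamonds are the pools whose tissue markers cross their label, and the open circle is adult colon pool 1 from its array with KO in Cy3. Hey1 is lower in all 5 adult pools than in all 5 fetal pools, and the 2 values of adult colon pool 1 differ most for Hes6. For Dll1 each diamond lies with the pools of the other tissue, and for Hes5 with the fetal pools of the other tissue.

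Hey1 (probe at chromosome 3, 8646505 to 8646564, mm8) was at 9.67, 8.94 and 9.03 in the adult colon pools and at 10.7 and 10.7 in the fetal colon pools. In adult small intestine it was at 9.60 and 9.51 and in fetal small intestine at 10.6, 10.5 and 9.96. All 5 adult pools lay below all 5 fetal pools, although adult colon pool 1 averages 10.2 and 9.18 on its 2 arrays. The share of all genes whose adult and fetal pools separate like this was not counted. Adult minus fetal colon was -1.47 ± 0.27 (SE), 2.76-fold lower in the adult, with adjusted p = 0.0201 by limma, in a comparison where 9.13% of genes passed (3.09% lower, 6.04% higher). The KO pools of the same arrays gave -1.46 with adjusted p = 0.0117, and adult colon pool 3 against fetal colon pool 2, on 1 slide, gave -1.63. With adult colon pool 1 from its array with KO in Cy3 it was -1.63 ± 0.18 (SE), adjusted p = 0.00165. It was -1.45 and missed the threshold without the slide whose markers cross the labels, which leaves 1 fetal colon replicate. With that slide and the array left out together it was -1.61. It also missed it when adult colon replicate 2 or 3, either adult small intestine replicate or either fetal colon replicate was left out, with adjusted p from 0.0518 to 0.0782. Adult minus fetal small intestine was -0.69 ± 0.30 (SE), adjusted p = 0.191 by limma, and adjusted p = 0.0442 at the same difference with adult colon pool 1 from 1 array. The order of group means, from fetal colon (10.7) over fetal small intestine (10.2) and adult small intestine (9.56) to adult colon (9.21), has no neighbouring groups that differ past the threshold with both arrays in.

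In adult minus fetal colon 5 of 10 endothelial markers passed and were lower, against 3.09% of all genes, and 0 were higher. The 5 were Cldn5 at -2.06, Egfl7 at -1.87, Emcn at -1.65, Cdh5 at -1.35 and Kdr at -1.16 on the log2 scale, each a vessel gene. The list's median was -1.10 beside -0.05 over all genes. When adult colon pool 1 came from 1 array, 9 of 10 passed and the median was -1.20. Their average wild type level was 8.57 to 8.84 in adult colon, 9.01 to 9.05 in adult small intestine, 9.73 to 9.96 in fetal small intestine and 9.93 to 10.02 in fetal colon. Of the neuronal and glial markers 1 of 5 passed and was lower in adult colon, and their median was -1.55. Epithelial markers went the other way, with 4 of 7 higher in adult colon and a median of 1.15 (6 of 7 and 1.46 with that pool from 1 array). The part of these marker lists in the Hey1 difference was not tested.

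Dll1 was lower in adult colon than in adult small intestine in every pool, and by label no tissue difference of it passed. It was at 10.1 and 10.5 in adult small intestine and at 8.89, 9.07 and 9.20 in adult colon. In fetal small intestine it was at 10.1 and 10.1, and at 8.89 in the pool labelled 3. In fetal colon it was at 10.4 in the pool labelled 1 and at 8.89 in pool 2. The adult groups do not overlap, and the fetal groups do. How many of all genes keep the adult tissues apart in this way was not counted. Adult colon minus adult small intestine was -1.28 ± 0.49 (SE), 2.43-fold lower in colon, with adjusted p = 0.219 by limma, in a comparison where 3.16% of genes passed. Without the slide whose markers cross the labels the value was the same, -1.28 ± 0.21 (SE), and adjusted p was 0.0182. With adult colon pool 1 from 1 array it was -1.24 with adjusted p = 0.181 by limma. On 1 slide, adult colon pool 2 minus adult small intestine pool 2 was -1.47. Fetal colon minus fetal small intestine was 0.15 ± 0.53 (SE) with adjusted p = 1.00 by limma, where 0.00586% of genes passed. It was -1.18 without the slide whose markers cross the labels, which leaves 1 replicate in each fetal group that is assumed to vary like the adult ones. Within that slide the pool labelled colon exceeded the pool labelled small intestine by 1.48.

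**Figure D4:**
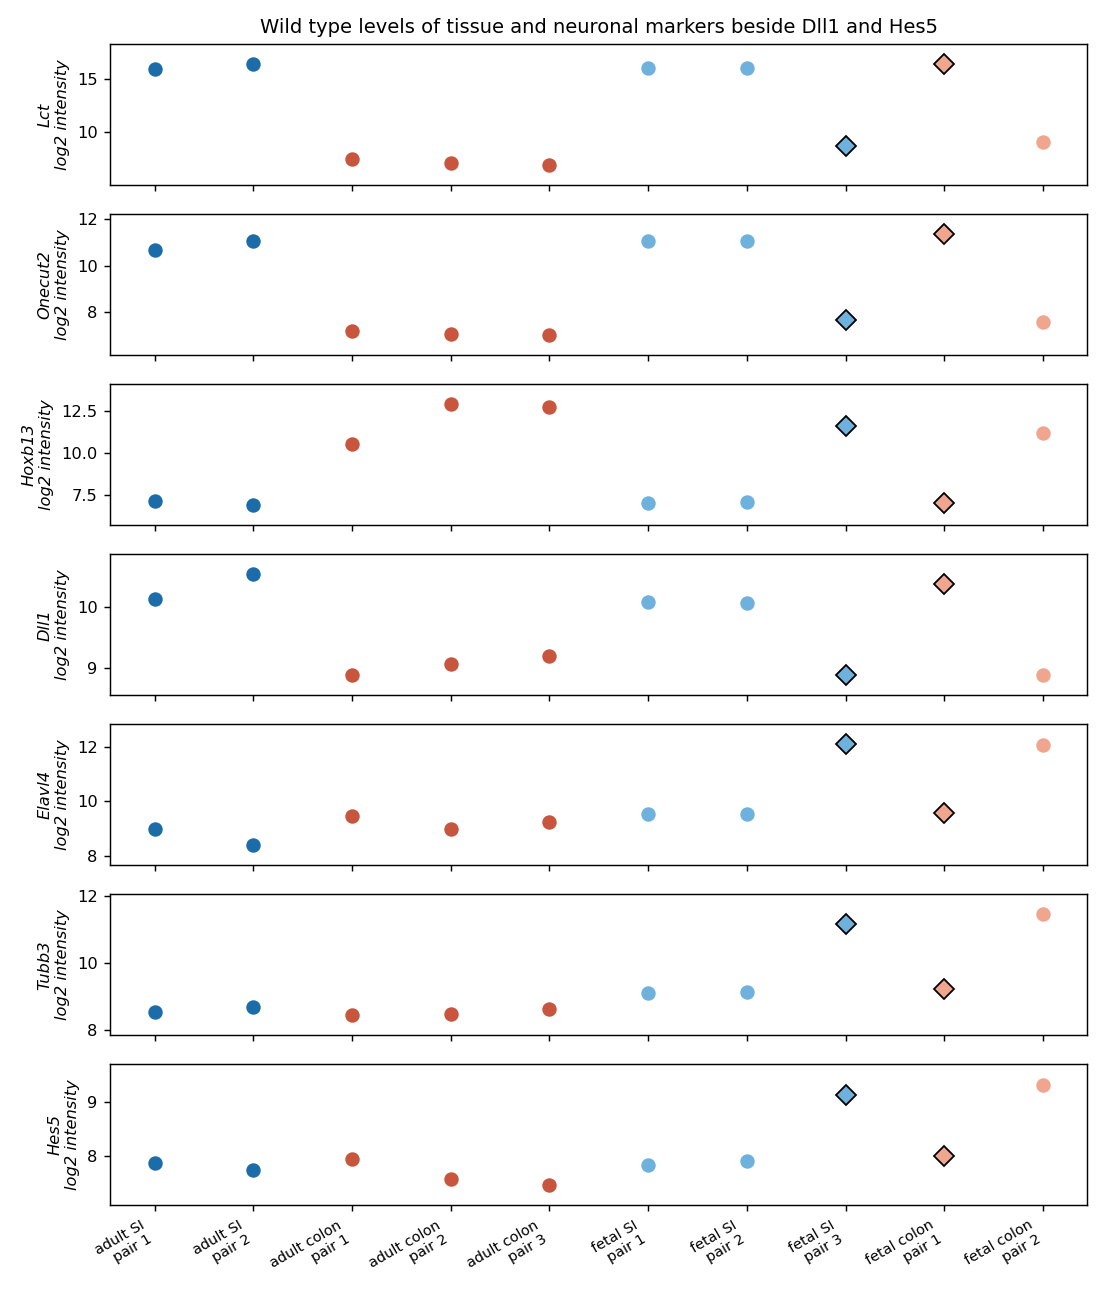
Wild type level in log2 intensity (y axis, own scale per panel) of Lct and Onecut2 (small intestine), Hoxb13 (colon), Dll1, the neuronal genes Elavl4 and Tubb3, and Hes5 in the 10 pools (x axis), with black-edged diamonds for the pools whose tissue markers cross their label. Dll1 is between 10.1 and 10.5 in the 5 pools with high Lct and between 8.89 and 9.20 in the other 5, and Hes5 is above 9 only in the 2 fetal pools with high Hoxb13, which also have the highest Elavl4 and Tubb3. The first adult colon pool is the mean of 2 arrays whose levels differ.

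Hes5 (probe at chromosome 4, 153806038 to 153806097, mm8) was high in the same 2 fetal pools and low elsewhere. It was at 9.12 in the pool labelled fetal small intestine 3 and at 9.31 in fetal colon pool 2. The other fetal pools were at 7.83, 7.90 and 8.0, the adult small intestine pools at 7.87 and 7.73, and the adult colon pools at 7.94, 7.57 and 7.46. By label, fetal colon was at 8.66 ± 0.93 (SD, n = 2) and adult colon at 7.66 ± 0.25 (SD, n = 3), so adult minus fetal colon was -1.0 ± 0.47 (SE) with adjusted p = 0.223 by limma. Without the slide whose markers cross the labels it was -1.66, 3.15-fold lower in the adult, with 1 fetal colon replicate. It was -1.76 with the array that stands apart left out too. Fetal colon minus fetal small intestine, 1 replicate each, was then 1.45. Adult colon pool 1 was at 7.65 on the array with KO in Cy3. On 1 slide, adult colon pool 3 minus fetal colon pool 2 was -1.86. Of the neuronal and glial markers, Elavl4, an RNA-binding protein of neurons, was at 12.1 in both of these fetal pools and at 8.40 to 9.59 in the other 8, and Tubb3, a neuronal tubulin, was at 11.2 and 11.4 against 8.43 to 9.22. The list of 5 measured markers averaged 10.2 and 10.3 in both pools, 9.09 to 9.13 in the other fetal pools and 8.16 to 8.59 in the adult pools. Within the list Sox10 was highest in the same 2 pools and S100b was not. Ret, a receptor of enteric neurons, did not pass the filter. Other lists also set these 2 pools apart from the other fetal pools. Smooth muscle markers averaged 13.8 and 14.1 against 12.4 to 12.5, and fibroblast markers 14.15 and 14.22 against 13.19 to 13.32. Leukocyte markers were lower, at 8.14 and 8.27 against 9.06 to 9.22. The part of these marker lists in the Hes5 level was not tested.

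By label and with both arrays of adult colon pool 1, the other 6 members gave no difference past the threshold in any of the 4 comparisons. Jag2 was at 7.61 and 7.47 in adult small intestine and at 7.69, 7.44 and 7.36 in adult colon, below all fetal pools, which were at 8.19, 7.91 and 7.98 (small intestine) and 8.47 and 8.01 (colon). As for Hey1, the share of all genes that separate the stages like this was not counted. Adult minus fetal colon was -0.75 ± 0.20 (SE), adjusted p = 0.0608 by limma; it passed under 8 of 22 alternatives. One of these took adult colon pool 1 from 1 array (-0.83 ± 0.15 SE, adjusted p = 0.0109), and without the slide whose markers cross the labels it was -0.52 with adjusted p = 0.238. Jag1 was higher in adult colon (10.2, 9.86 and 10.1) than in adult small intestine (9.26 and 9.47), a difference of 0.67 ± 0.20 (SE) with adjusted p = 0.128 by limma. Its fetal difference had the same sign, 0.41 ± 0.22 (SE), and missed the threshold (adjusted p = 1.00), with fetal pools from 9.27 to 9.96. With adult colon pool 1 from 1 array the adult difference was 0.56 (adjusted p = 0.0867 by limma). Hes1 was at 9.78 (9.43 from 1 array), 9.81 and 8.97 in adult colon and at 8.68 and 9.03 in adult small intestine, groups that overlap, and at 8.60 to 9.39 in the fetal pools. Notch1 ran from 7.77 in fetal small intestine to 8.52 in adult colon pool 1, where its arrays read 8.93 and 8.11. Dll4 ran from 7.49 in adult colon pool 1, where its arrays read 7.16 (not well above background) and 7.82, to 8.41 in adult small intestine.

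Hes6 had the widest span, and 1 array set it. Adult colon pool 1 was at 9.10 on the array whose levels stand apart and at 12.6 on its dye swap, a mean of 10.9. Adult colon pools 2 and 3 were at 12.7 and 12.5, and adult small intestine at 12.1 and 12.0. The fetal pools were at 12.8, 12.8 and 13.2 in small intestine and at 12.9 and 12.8 in colon. Adult minus fetal small intestine was -0.96 ± 0.55 (SE), adjusted p = 0.307 by limma, and with adult colon pool 1 from 1 array adjusted p was 0.00568 at the same difference, since that pool enters through the shared spread. Adult colon minus adult small intestine turned its sign, from -0.026 (adjusted p = 0.987) to 0.56 ± 0.13 (SE, adjusted p = 0.0491). Of the 2 probes of Hes6 (chromosome 1, 93242093 to 93242152 and 93243137 to 93243196, mm8) these are the levels of the brighter. By the other probe the stages overlap: adult colon pools were at 9.47, 9.24 and 9.13 and adult small intestine pools at 8.73 and 8.97, against 9.76, 9.81 and 9.16 in fetal small intestine and 9.65 and 9.33 in fetal colon.

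By likeness of level over the 9 wild type replicates (root mean square distance after centring, log2), the nearest genes are a description with no test, and each of the 6 members lost at least 1 of its nearest 3 with adult colon pool 1 from 1 array. Nearest to Hey1 were Grrp1 (0.10), Arap3 (0.14) and Batf3 (0.16), of which Grrp1 and Batf3 stayed among the nearest 3. Nearest to Dll1 were Isoc2a (0.13), Ltb4r2 (0.14) and Vmp1 (0.15), of which Isoc2a and Ltb4r2 stayed. Nearest to Hes5 were Asphd2 (0.10), Slit2 (0.15) and Mns1 (0.15), of which Asphd2 and Slit2 stayed. Grik4 (0.093) and Cryba4 (0.10) were near Jag2 both ways. Of the nearest to Hes6, Rpl5 (0.096), Rps25 (0.14) and E2f5 (0.15), Rpl5 stayed, and of those nearest to Hes1 (Fpgt, Mitd1 and Cdh26, 0.14 to 0.21) none did.

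Beyond the 10 genes, a list of 58 other Notch pathway genes (receptors, ligands, modifiers, the cutting enzyme, co-factors and further Hes and Hey genes) had 53 that passed the filter; Dtx3l, Maml3, Hes3, Hes7 and Hey2 did not. In adult colon 6 of 53 were lower in KO and 0 higher, against 5.66% and 3.92% of all genes, and the list's median was -0.02 beside -0.00 over all genes. Dlk1, a Delta-like protein that lacks the receptor-binding domain of true ligands, was lower by 2.88-fold, at -0.89, -1.0 and -2.68 in the 3 pairs (mean -1.52 ± 0.31 SE, adjusted p = 0.0243 by limma). Its size rested on pair 3: without it the mean was -0.95. Tle2 and Tle4, Groucho co-repressors that Hes proteins recruit, were at -0.33 and -0.29, and Dner, a Delta-like neuronal protein, was at -0.33. Neurl1a, a ubiquitin ligase that acts on ligands, was at -0.27, and Dtx3, of the Deltex family, at -0.22. All 6 were below 0 in 3 of 3 pairs, which is no added evidence, since these same pairs picked them. The count of 6 rested on all 3 pairs: it was 0 without adult colon pair 1, 1 without pair 2 and 3 without pair 3. It was 1 with the series table and 0 with median centring in place of loess. With median centring all 6 genes stayed below 0, on the same arrays that picked them. The count was 6 with the array whose levels stand apart left out. In the other groups and in the mean 0 of 53 passed by limma. Unadjusted p was under 0.05 for 12 of 53 in adult colon, against 27.6% of all genes. It was under 0.05 for 3 in adult small intestine (against 12.1%) and 2 in fetal small intestine (against 7.56%). In fetal colon it was for 1 (against 6.52%) and in the mean for 7 (against 16.7%). Neuronal and glial markers were lower in the same adult colon pairs, 3 of 5 past the threshold with a median of -0.26, and pancreatic markers varied from pool to pool there, with Cpa1, a pancreatic enzyme, at 15.4, 7.17 and 15.9 in wild type; their part in these 6 ratios was not tested.

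In the wild type comparisons, Dlk1 was the pathway gene with the widest range. It was at 7.26 and 7.25 in adult small intestine, at 9.57, 10.8 and 11.2 in adult colon and at 12.6 to 14.2 in the fetal pools. Adult minus fetal small intestine was -6.22 (adjusted p = 0.00344 by limma); it passed under 22 of 22 alternatives, with values from -8.89 to -5.15. Adult minus fetal colon was -2.90 (adjusted p = 0.0378) and adult colon minus adult small intestine 3.25 (adjusted p = 0.0462), each past the threshold under 15 of 22. Hes2, another Hes repressor, was at 10.5 and 10.3 in adult small intestine and at 8.22 to 9.01 in the other 8 pools. It was higher by 1.48 than in fetal small intestine (adjusted p = 0.0185), and adult colon minus adult small intestine was -1.95 (adjusted p = 0.00759). Itch, a ubiquitin ligase, was higher in adult than in fetal small intestine by 1.45 (adjusted p = 0.0188). In adult minus fetal colon, Notch3, a receptor of mural cells, was at -1.43 (adjusted p = 0.0306) and Mfng, a glycosyltransferase that modifies receptors, at -1.39 (adjusted p = 0.0206), beside the fall of Hey1. That made 3 of 53 lower and 0 higher in colon, and 2 higher and 1 lower in small intestine, where 8.86% of all genes passed (5.06% higher, 3.8% lower). Between adult tissues it was 1 each way (1.67% of all genes were higher in colon and 1.49% lower). Between fetal tissues it was 0, with 1 at an unadjusted p under 0.05, against 0.568% of all genes. Without the slide whose markers cross the labels, which leaves 1 fetal small intestine replicate, Hes2 and Itch no longer passed in small intestine. These counts moved with single pools: the 3 lower in colon became 0 without either adult small intestine replicate, adult colon replicate 2 or 3 or fetal colon replicate 2. In small intestine the count was 0 higher and 1 lower without either adult small intestine replicate or fetal small intestine replicate 3, and 7 higher and 6 lower with the scanner's processed signals. It was 7 higher and 8 lower in small intestine, and 3 higher and 4 lower in colon, when adult colon pool 1 came from 1 array.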

How the data were processed

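RNA of 10 KO and 10 wild type pools was hybridized to 20 two-colour Agilent arrays. Spots were read by the authors with Agilent Feature Extraction 9.5.3, per the file headers; the deposited mean and background signals are intensities on a linear scale, and the deposited log ratio is log10 of red over green. The deposited series table held log2 ratios of KO over wild type, found by setting it against the scanner values, and served as an alternative. Probe positions are mm8. Genes were named by the RefSeq table (GRCm38.p6): 23374 of 41174 probes by accession, 6733 by current symbol, 2919 by older symbol and 8148 by the file's name.

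With limma 3.58.1 (R 4.3.3), signals were background-corrected (normexp, offset 50), loess-normalized with control spots at weight 0, and turned to KO over wild type; dye swaps were averaged to 1 replicate. Wild type levels are log2 intensities after loess and Aquantile scaling. A probe was kept if well above background on all arrays of a group in 1 genotype, and a gene was represented by its brightest kept probe. All 9 replicates entered 1 fit of 4 group means, leaving 5 residual degrees of freedom, two-sided, Benjamini-Hochberg over 17072 genes, threshold 0.05; ± SE is limma's standard error. The steps were tested on simulated data. Pools of the same number were not paired in the fit. Across genes, their deviations in KO over wild type ratio correlated at -0.13 to 0.15, and those of other numbers at -0.16 to 0.16. For the wild type level the ranges were -0.90 to 0.91 and -0.92 to 0.92. The deviations of the few pools in a group offset each other, so these ranges cannot decide whether equal numbers mark pairs. The members and lists were chosen with earlier results of these data known. Named were all members, Spdef, pathway genes past the threshold, marker genes, and the 3 genes nearest in level to each member whose level spanned at least 1; some of the genes these rules name are not reported here. The exons under the probes were not examined here. Alternatives stand in the closing section.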

Additional observations from a re-analysis of the deposited data

How the results depend on the processing

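The Notch genes past the threshold in wild type changed with the processing. In KO against wild type it was 0 in each group and in both differences under every alternative run. For the mean of the 4 groups it was 1 (Hey1) with each array as an observation, a dye term and the replicate as a random block. It was also 1 (Hey1) there with fetal small intestine pairs 1 and 2 separate. For adult minus fetal colon in wild type, where Hey1 was the main call, it was 2 with those pairs separate, the mean of all probes, no background subtraction, the scanner's processed signals and a trended and robust prior (Jag2 joining), and it ran from 0 to 2 when a replicate was left out. For adult minus fetal small intestine it was 1 with processed signals (Jag2), and 0 to 1 when a replicate was left out. For adult colon minus adult small intestine it was 1 (Dll1) without the slide whose markers cross the labels, which for adult minus fetal colon exchanged Hey1 (adjusted p = 0.0513) for Hes5 (adjusted p = 0.0200). With adult colon pool 1 from its array with KO in Cy3, chosen after the data were seen, the counts were 1 (Hes6) between adult tissues, 0 between fetal tissues, 2 (Hes6, Hey1) for adult minus fetal small intestine and 2 (Hey1, Jag2) for colon. The shares of all genes that passed rose in that setting too, as given with the wild type levels. With that slide out too, each fetal group had 1 replicate and the counts over all genes were at their highest, so no count of members is given. Values that turned sign past the threshold were Hes6 between adult tissues (0.56 in both settings) and Dll1 between fetal tissues (-1.18 with the slide out too). Among the single genes' values, 2170 kept their side of the threshold and moved by less than 1 SD, 114 moved further, 24 newly passed, 7 no longer passed and these 3 turned sign. Replicate number as a block could be fitted only with pairs 1 and 2 separate, since the merged pair has no number of its own; with this replicate block, chosen after the data were seen, 1 member (Hey1) passed in adult minus fetal colon and 0 in the other comparisons.

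Counts over all genes moved more: KO against wild type in adult colon called 1636 genes, and 57 (median centring) to 3045 (each array) otherwise, adult small intestine 68 (13 to 501), fetal small intestine 75 (10 to 351), fetal colon 49 (3 to 198), the mean 306 (0 to 1212), the adult minus fetal effect 184 (0 to 1311) and the small intestine minus colon effect 29 (2 to 249). In wild type, adult colon minus adult small intestine called 539 (104 to 4959), the fetal tissues 1 (0 to 4493), and adult minus fetal 1512 (283 to 5979) in small intestine and 1559 (604 to 6915) in colon. Of the adult colon calls 41% were higher in KO, and 19.3% with median centring; for adult small intestine it was 41.2%, and 0% with median centring, 20.9% with the series table and 27.2% with processed log ratios. In fetal colon 38.8% became 0%, in the mean 29.7% became 9.46%, and in the small intestine minus colon effect 27.6% became 14.3% with median centring and 42.9% with processed log ratios. In fetal small intestine 29.3% became 44.3% with the series table. The fetal tissue comparison went from 1 call, higher in colon, to 4 higher and 1 lower with processed signals and 1 each way with no background subtraction. Median centring moved the median of all genes in fetal colon to -0.14. Signal over background limits Notch2 and the dimmer Jag1 probe. The causes were not tested.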
